A study of Mus musculus with 6 samples.

Results

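The genes of the mitochondrial ribosomal proteins were followed through mouse oocytes and early embryos with and without the transcriptional coactivator YAP, the product of Yap1. They were taken as every gene symbol made of Mrpl (mitochondrial ribosomal protein of the large subunit) or Mrps (of the small subunit), a number and an optional letter, which gave 76 of the 23308 symbols in the deposited tables. By the place of their products in the ribosome, 49 belong to the large subunit, Mrps30 and Mrps18a among them, and 27 to the small subunit. Of the 76, 46 were listed with a counterpart in bacterial ribosomes and 30 as specific to mitochondria. Mrps18a and Mrps18b were kept in the mitochondria-specific lists, although they descend from a bacterial protein. Mrps36 was kept with the small subunit because of its name, although its product is now known as a part of the alpha-ketoglutarate dehydrogenase complex.

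There were 6 libraries, each from a pool of 60 oocytes or embryos, collected from gonadotrophin-treated females of 21 to 23 days on an ICR background. Immature oocytes with an intact germinal vesicle (GV), which have not resumed meiosis, gave 2 libraries labelled YAP-/-, Yap1-deleted (YAP-null here) and 2 from wild-type females. Embryos of the 4-cell stage, from mated females, gave 1 YAP-null library, from a YAP-/- mother, and 1 wild-type library. The titles and stage fields name these samples 4-cell embryos, whereas the source field calls them GV oocytes, and the former were followed. No source used here gives the fathers' genotype or the cells of the females in which Yap1 was deleted. The labels do not say whether libraries of a group came from different females, so p-values measure the spread between these libraries, which may be technical.

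The mitochondrial ribosome translates the few messages encoded by mitochondrial DNA, all of them for subunits of the respiratory chain and the ATP synthase. Its ribosomal RNAs come from mitochondrial DNA, whereas its proteins are encoded in the nucleus, made on cytosolic ribosomes and imported. The growing oocyte accumulates a large stock of mitochondria, which the cleaving embryo divides among its cells.

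Values are FPKM, a fragment count scaled to transcript length and to library size. Levels were compared between genes on that scale, within the limits given below for bounds, transcript length and overlapping loci. Depth relative to wild-type GV library 1, judged from the width of the bounds beside each value, ran from 0.366 to 1.00, and read totals are unknown. Yap1 stood at 10.8 and 10 FPKM in the YAP-null GV libraries, 248 and 154 FPKM in the wild-type ones, and at the 4-cell stage 33.3 FPKM (YAP-null) and 89.7 FPKM (wild type). The embryo library labelled YAP-null thus held more Yap1 message than the YAP-null oocyte libraries and less than the wild-type embryo library, and its name below is that of the label. For 7, 3, 31 and 3 of the 76 members in YAP-null GV libraries 1 and 2 and wild-type GV libraries 1 and 2, and for 20 and 31 in the YAP-null and wild-type embryo libraries, the FPKM fell outside the bounds printed beside it. Among all genes that share ran from 2.5% to 9.06% of a library. The 8 oocyte markers, such as Zp3 and Gdf9, summed to between 5873.8 and 8818.0 FPKM in GV libraries. The 11 granulosa and cumulus cell markers summed to between 44.0 and 48.5 FPKM there and to 156 and 256 FPKM in the YAP-null and wild-type 4-cell libraries, where Amhr2 and Nr5a2 made up most of the sum and Fshr was listed at 0 in both. The 5 blood markers reached 1.54 FPKM at most in GV libraries, and 25.9 and 68.3 FPKM at the 4-cell stage.

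The messages of the mitochondrial ribosome were present at moderate levels at both stages. Of the 76 genes, 74 were above 1 FPKM in every library and all 76 passed the filter of a mean of 1 FPKM. The median gene stood at 38.8 and 21.0 FPKM in YAP-null GV libraries 1 and 2, 39.4 and 23.7 FPKM in wild-type GV libraries 1 and 2, and among embryos 24.5 FPKM (YAP-null) and 34.3 FPKM (wild type). The GV libraries numbered 1 were thus the highest and those numbered 2 the lowest of the 6. The summed level was 4081.9 and 2155.4 FPKM in the YAP-null GV libraries, 4008.3 and 2273.8 FPKM in the wild-type ones, and among embryos 2706.6 FPKM (YAP-null) and 3590.1 FPKM (wild type). Those sums made up between 0.594% and 1.09% of all FPKM in a library.

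**Figure D1:**
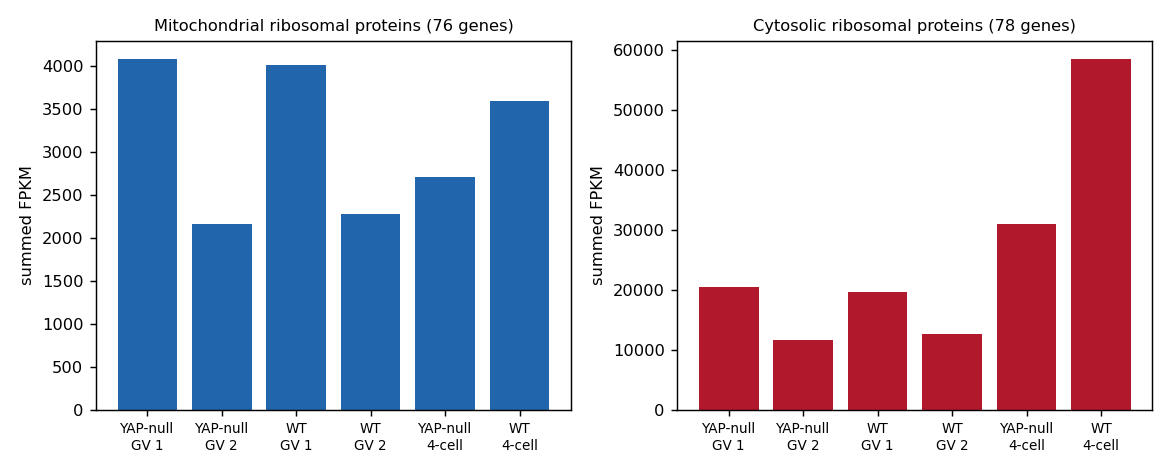
Summed FPKM of the 76 mitochondrial (left) and 78 cytosolic (right) ribosomal protein genes in each library, 1 bar per library, with separate linear axes from 0. The mitochondrial sum lies between 2155.4 and 4081.9 FPKM with no separation of the stages, whereas the cytosolic sum is highest in both 4-cell libraries.

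Within the ribosome the members were unequal, although its proteins are present as single copies with few exceptions. The coefficient of variation of FPKM across the 76 genes was between 85.0% and 102% in a library, against 50.4% to 73.5% across 78 genes of cytosolic ribosomal proteins. In every GV library the highest member was Mrpl48, a mitochondria-specific large subunit protein, at 276, 121, 253 and 124 FPKM (YAP-null 1 and 2, wild-type 1 and 2). The lowest member in every GV library was Mrps34, a mitochondria-specific small subunit protein, at 1.78, 1.39, 1.40 and 0.374 FPKM. At the 4-cell stage the order was different: Mrpl12, the protein of the flexible stalk that recruits translation factors, was highest at 201 FPKM (YAP-null) and 205 FPKM (wild type). Mrpl1, which forms the mobile stalk at the exit site, was lowest, at 4.78 FPKM in wild-type embryos and listed at 0 in YAP-null ones. The rank correlation between mean GV and mean 4-cell FPKM was 0.33 across the 76 members and 0.75 across the cytosolic genes (Spearman's rho, across genes, which share the libraries and are not independent).

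The GV libraries numbered 1 stood apart from those numbered 2 in both genotypes. Of the members, 24 of 76 were at least 2-fold higher in YAP-null library 1 than in 2 (8.89% of all genes were), and 25 of 75 in wild-type library 1 than in 2 (6.84% of all genes). In the other direction, 0 members passed the 2-fold rule in either genotype, against 18% and 16.4% of all genes. The members' median log2 difference, number 1 minus number 2, was 0.69 in YAP-null and 0.64 in wild-type oocytes, beside -0.07 and -0.10 over all genes. The medians of the cytosolic genes were 0.87 and 0.78. Transcripts of these genes are short: the median length was 1038 bases for members and 689 bases for cytosolic genes, against 2083 bases for the genes tested. Across all genes the difference between numbers ran against transcript length (Spearman's rho of -0.28 in each genotype, across genes of the same libraries), and genes under 1000 bases had medians of 0.20 and 0.10. The part of transcript length in the members' difference was not tested.

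Between the GV and the 4-cell stage, individual members moved far apart, while their median over both genotypes stayed near that of all genes. Mrpl20, Mrps34 and Mrpl43 rose 10.2-fold or more in mean FPKM, and Mrpl48, Mrpl24, Mrps36, Mrps35 and Mrpl14 fell by 6-fold or more. Of the 76 members, 16 rose (21.1%, beside 28.2% of all 11451 genes tested) and 12 fell (15.8%, beside 27.8% of all genes), at an adjusted p under 0.05 in limma. In either direction these were 28 members (36.8%) beside 56% of all genes. The spread in this fit includes the difference between GV numbers 1 and 2, which was larger for members than for all genes. Its part in the lower shares was not tested. Counts from a fit that accounts for the replicate number within GV are given in the last section. The median log2 difference, 4-cell minus GV, was -0.10 for members and -0.10 for all genes. Within wild type the medians were 0.13 for members and -0.12 for all genes, and within YAP-null -0.23 and -0.00. Each genotype has 1 library at the 4-cell stage, so members lay above all genes in 1 embryo library and below in the other. In libraries from pooled cells, fewer cells and less RNA per cell cannot be told apart, and FPKM gives only the share of each message.

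**Figure D2:**
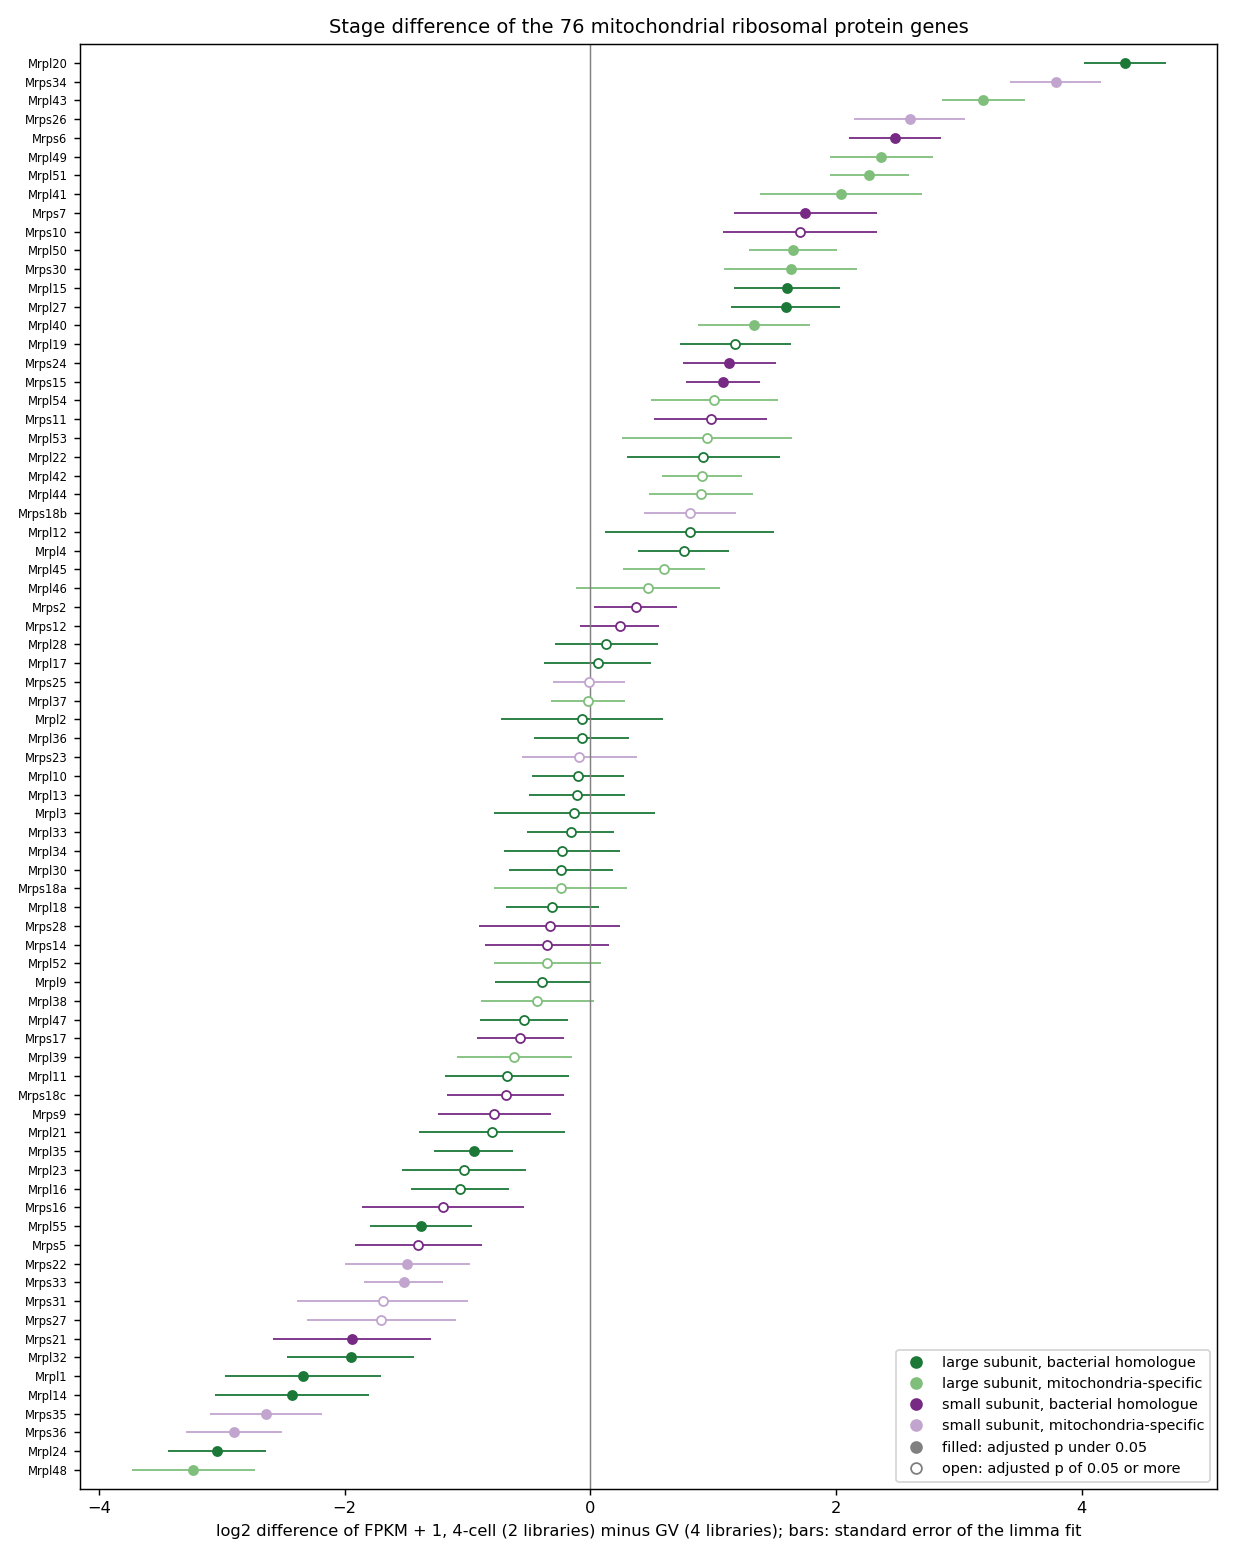
Log2 difference of FPKM + 1, 4-cell minus GV, for each of the 76 members in rank order. Points are limma estimates with standard errors, colours give the subunit and whether a bacterial counterpart was listed, and filled points pass an adjusted p under 0.05. The differences run from 4.35 (Mrpl20) to -3.23 (Mrpl48) without a gap.

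Of the 16 risers, 8 had a 4-cell value outside its own bounds, in both embryo libraries for Mrpl20, Mrpl43, Mrps26, Mrps7, Mrpl40 and Mrps24, and so did 4 of the 12 fallers. The counts depended on single libraries. Without the wild-type 4-cell library 5 members rose and 7 fell, and without the YAP-null 4-cell library 9 rose and 4 fell. Each of those fits has 1 library at the 4-cell stage, assumed to vary like the GV libraries. Leaving out YAP-null GV library 2 or wild-type GV library 2 left 10 risers each. Mrpl35 lost its call whichever GV library was left out, and Mrpl55, Mrps15, Mrps24 and Mrps21 lost theirs without most of the GV libraries in turn. Mrps7, Mrpl40, Mrpl41 and Mrps30 lost theirs without either GV library numbered 2. Mrps22 lost its call without either GV library numbered 1, and Mrpl27 without wild-type GV library 1. Called whichever library was left out were 5 risers (Mrpl20, Mrps34, Mrpl43, Mrps6, Mrpl51) and 3 fallers (Mrpl24, Mrps36, Mrps35), and each of the others missed the threshold in at least 1 of the 6 fits. With the GV libraries numbered 1 alone as the oocyte group, 11 of the 16 risers and 12 of the 12 fallers were called, and with those numbered 2 alone 16 of 16 and 10 of 12. The median of the 76 members was -0.41 with number 1 alone and 0.29 with number 2 alone.

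Among large subunit proteins with a bacterial counterpart, which form the catalytic core and the stalks, 3 of 30 rose and 6 fell. The shares of all genes were 28.2% and 27.8%. Mrpl20, whose bacterial counterpart binds the large ribosomal RNA early in assembly (mm9 chromosome 4, 155177727 to 155182938), was at 6.5, 6.11, 6.80 and 4.93 FPKM in YAP-null GV libraries 1 and 2 and wild-type GV libraries 1 and 2. The 4-cell values were 116 FPKM (YAP-null) and 175 FPKM (wild type), both far above the narrow GV range and both outside their own deposited bounds. It rose by 4.35 ± 0.334 (SE) on the log2 scale (adjusted p 0.000261), from a GV mean of 6.09 ± 0.820 FPKM (SD, n = 4), and was the largest rise among members with a pseudocount of 1 FPKM. With 0.1 FPKM it was at 4.54, below Mrps34 at 4.61. Mrpl15 (1.60) and Mrpl27 (1.59) were the other risers of this class.

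Mrpl24, whose bacterial counterpart starts the assembly of the large subunit (mm9 chromosome 3, 87723466 to 87727355), went the other way. It was at 76.1, 65.5, 85.0 and 59.1 FPKM in the GV libraries, in the same order, and at 4.69 and 12.3 FPKM in the YAP-null and wild-type 4-cell libraries, with no overlap of the stages. It fell by 3.04 on the log2 scale (SE 0.401, adjusted p 0.00138). Its locus overlaps that of Rrnad1, which was at 8.25 FPKM or less in each library, so fragments shared by both could be assigned to either. Mrpl14, a protein of the interface between subunits, was at 221, 68.6, 201 and 73.9 FPKM in GV libraries and at 27.7 and 17.3 FPKM at the 4-cell stage (log2 difference -2.43, adjusted p 0.0172). Mrpl32, which is matured by the m-AAA protease before it joins the ribosome, fell by 1.95, and Mrpl55 and Mrpl35 fell by 1.38 and 0.95. Mrpl35 did not pass whichever GV library was left out, and Mrpl55 did not pass without most of them in turn. Mrpl1 fell by 2.34 (adjusted p 0.0209), from 13.9, 11.1, 9.77 and 10.3 FPKM. Without the YAP-null 4-cell library, in which it was listed at 0, the difference of Mrpl1 was -0.93 and did not pass (adjusted p 0.131).

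Of the large subunit proteins specific to mitochondria, 7 of 19 rose and 1 fell, beside 28.2% and 27.8% of all genes. The median of the class was 0.91. Mrpl43 (mm9 chromosome 19, 45079504 to 45080932) was at 6.85, 4.15, 8.05 and 7.07 FPKM in GV libraries and at 65.7 and 68.0 FPKM at the 4-cell stage, so both 4-cell values were close to each other and far above every oocyte value. It rose by 3.20 ± 0.337 (SE) on the log2 scale (adjusted p 0.000657). Mrpl49 (2.37), Mrpl51 (2.27), Mrpl41 (2.04), Mrpl50 (1.65), Mrps30 (1.63) and Mrpl40 (1.33) also rose. The loci of Mrpl49 and Mrpl41 overlap those of Syvn1 and Wdr85, so fragments shared by both genes of a pair could be assigned to either. The only faller of the class was Mrpl48, the most abundant member of the oocyte (mm9 chromosome 7, 107697631 to 107756510), whose GV values given above dropped at the 4-cell stage to 15 FPKM (YAP-null) and 22.2 FPKM (wild type). It fell by 3.23 on the log2 scale (SE 0.502, adjusted p 0.00247), did not pass when either 4-cell library was left out, and its value is uncertain because its locus overlaps Rab6a and RefSeq lists a pseudogene of it.

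In the small subunit, 4 of 16 proteins with a bacterial counterpart rose and 1 fell, while 2 of 11 mitochondria-specific ones rose and 4 fell. Of all genes, 28.2% rose and 27.8% fell. The rises with a counterpart were Mrps6 (2.48), Mrps7 (1.75), Mrps24 (1.13) and Mrps15 (1.08). Mrps6 was at 11.1, 12.0, 10.7 and 21.8 FPKM in GV libraries and at 77.4 and 80.0 FPKM at the 4-cell stage, where the libraries lay close together. Its locus overlaps that of Slc5a3, which was at 4.59 FPKM or less in each library. Mrps34, the lowest member in oocytes (mm9 chromosome 17, 25032065 to 25033218), reached 28.0 FPKM (YAP-null) and 29.7 FPKM (wild type) at the 4-cell stage. It rose by 3.79 ± 0.370 (SE) on the log2 scale (adjusted p 0.000531). Mrps26, the other mitochondria-specific riser, went from 20.5, 14.4, 22.7 and 8.94 FPKM to 88.8 and 114 FPKM (2.60, adjusted p 0.00375), and it did not pass without the wild-type 4-cell library.

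The falls of the small subunit were Mrps36 (-2.90), Mrps35 (-2.64), Mrps21 (-1.94), Mrps33 (-1.52) and Mrps22 (-1.49). Mrps35 was at 61.1, 38.0, 53.6 and 38.3 FPKM in GV libraries and at 3.78 and 11.4 FPKM in the YAP-null and wild-type 4-cell libraries, and passed at an adjusted p of 0.0037. Mrps36, whose product belongs to another complex, was at 133, 98.1, 139 and 116 FPKM and then at 21.7 and 10.6 FPKM (adjusted p 0.00146). RefSeq lists 3 pseudogenes of Mrps36, so its value is uncertain. Mrps21, a protein of the platform, stood at 70.6, 65.6, 61.3 and 47.4 FPKM in GV libraries, and among embryos at 5.72 FPKM (YAP-null) and 37.2 FPKM (wild type). Its wild-type embryo value lay much closer to the oocyte range than the YAP-null one. Mrps21 did not pass without the YAP-null 4-cell library, nor without YAP-null GV library 1, YAP-null GV library 2 or wild-type GV library 1.

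**Figure D3:**
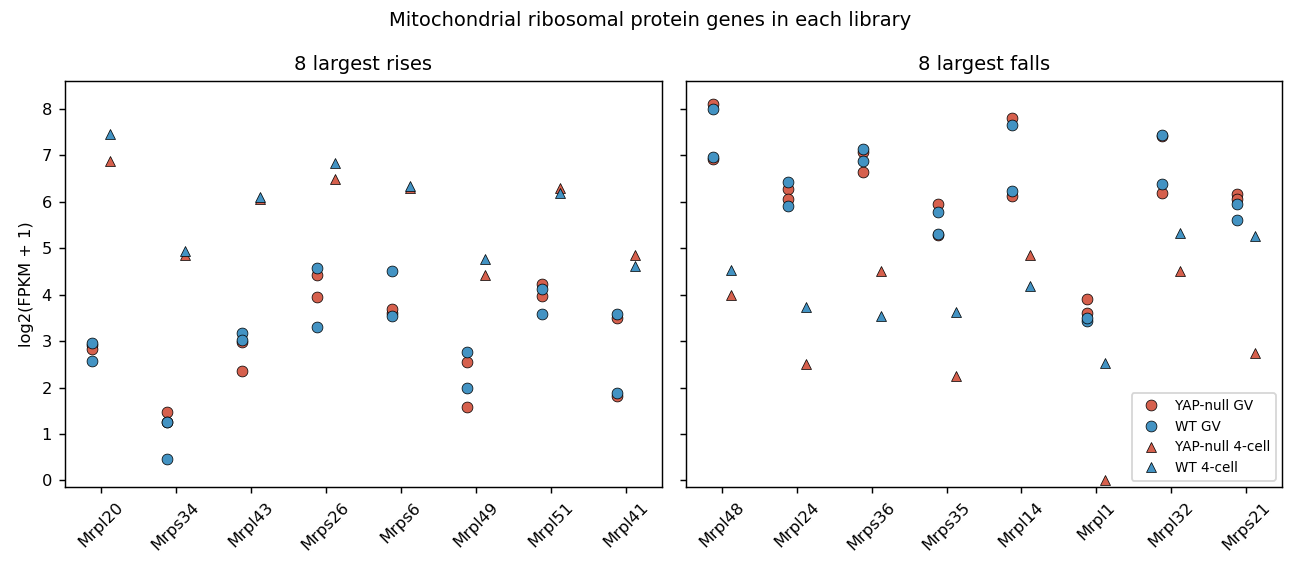
log2(FPKM + 1) in each of the 6 libraries for the 8 members with the largest rises (left) and the 8 with the largest falls (right) that passed the test. Circles are GV and triangles 4-cell libraries, coloured by genotype. Every 4-cell value lies outside the GV range of its gene, and the YAP-null triangle of Mrpl1 sits at 0.

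Homologous members varied in their values. The Mrps18a, Mrps18b and Mrps18c genes descend from the bacterial S18 protein, and none of them passed the stage test: Mrps18b was at 0.81, Mrps18a at -0.24 and Mrps18c at -0.69 (adjusted p 0.11, 0.726 and 0.253). Mrpl12 was at 0.81 (adjusted p 0.349) and Mrps12, a protein of the decoding centre, at 0.24 (adjusted p 0.546). Mrpl12 was at 225 and 200 FPKM in the GV libraries numbered 1 and 56.1 and 69.9 FPKM in those numbered 2, so the 4-cell values of 201 and 205 FPKM lay inside the oocyte range.

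All 16 risers lay above every GV library in both 4-cell libraries, as did 25 members in all (32.9%, against 35.1% of all genes). All 12 fallers lay below every GV library, as did 14 members in all (18.4%, against 35.2% of all genes). Within each genotype the stage differences of members ran in parallel: those of the 76 members in wild-type and in YAP-null libraries, which share no library, had a Pearson's r of 0.88 across genes (0.91 over 10994 genes) and the same sign in 58. By the 2-fold rule, 23 members were higher and 9 lower in wild-type 4-cell embryos than in wild-type oocytes (33.1% and 35.3% of all genes). In YAP-null libraries 14 were higher and 23 lower (31% and 29.4% of all genes).

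Of the 78 genes of the cytosolic ribosome in the tables, 41 rose over the same interval (52.6%, beside 28.2% of all genes) and 0 fell (beside 27.8%), with a median of 1.60, and 63 lay above every GV library in both embryos. Its summed FPKM was 5.03, 5.39, 4.91 and 5.55 times that of the mitochondrial ribosome in YAP-null GV libraries 1 and 2 and wild-type GV libraries 1 and 2. That ratio was 11.5 in the YAP-null and 16.3 in the wild-type 4-cell library, above all 4 oocyte values. The count of 41 was 22 without the YAP-null and 5 without the wild-type 4-cell library, 15 with no filter on low values, and 64 with the GV libraries numbered 2 only. The difference between the lists was described and not tested.

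RefSeq promoters were read for members whose values moved or that share a start region with another ribosomal protein gene. The table, on GRCm38.p6, gives 250 bases before and 50 after a gene's start and held 67 of the 76 members. Each window was searched on both strands for CCGGAAG (ETS factors such as GABPA, known regulators of nuclear genes for mitochondria), GCGCATG (part of the NRF1 site), AAGATGG (part of the YY1 site) and GGAATG (TEAD, the DNA-binding partners of YAP). None of these overlap in the windows shown. They are printed 5′ to 3′ on the gene's strand, with matches in capitals. Mrpl43 (chr19:45006393-45006692, minus strand) is the riser with the ETS letters at 2 places, Mrpl24 (chr3:87919294-87919593, plus strand) a faller with none of these motifs in its window. Mrpl49 (chr19:6057706-6058005, minus strand) carries the YY1 letters at 2 places, and Mrpl46 (chr7:78783040-78783339, minus strand) the TEAD letters once on each strand.
Mrpl43: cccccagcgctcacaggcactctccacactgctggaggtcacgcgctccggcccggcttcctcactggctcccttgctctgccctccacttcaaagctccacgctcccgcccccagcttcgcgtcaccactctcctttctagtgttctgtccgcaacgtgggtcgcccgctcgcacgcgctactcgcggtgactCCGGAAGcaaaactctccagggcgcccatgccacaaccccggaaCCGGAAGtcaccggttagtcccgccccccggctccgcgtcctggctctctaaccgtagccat
Mrpl24: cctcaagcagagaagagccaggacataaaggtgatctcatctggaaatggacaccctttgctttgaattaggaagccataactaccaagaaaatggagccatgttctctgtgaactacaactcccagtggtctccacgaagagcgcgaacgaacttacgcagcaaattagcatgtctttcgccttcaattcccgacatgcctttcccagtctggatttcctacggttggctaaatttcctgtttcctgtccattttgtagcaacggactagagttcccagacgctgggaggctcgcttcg
Mrpl49: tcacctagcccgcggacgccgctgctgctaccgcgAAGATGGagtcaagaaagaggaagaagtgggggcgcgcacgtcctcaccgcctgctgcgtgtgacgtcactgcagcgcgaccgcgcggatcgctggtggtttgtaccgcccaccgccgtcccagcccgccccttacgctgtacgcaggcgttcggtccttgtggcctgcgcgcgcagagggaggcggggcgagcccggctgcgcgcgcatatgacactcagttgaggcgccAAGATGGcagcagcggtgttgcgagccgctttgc
Mrpl46: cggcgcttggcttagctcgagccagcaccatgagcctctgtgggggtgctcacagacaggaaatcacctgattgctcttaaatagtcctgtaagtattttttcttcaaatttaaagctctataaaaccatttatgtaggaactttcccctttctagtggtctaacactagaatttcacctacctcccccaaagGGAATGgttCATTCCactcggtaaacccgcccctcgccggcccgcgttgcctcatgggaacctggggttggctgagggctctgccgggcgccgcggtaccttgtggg

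The ETS letters stood in the windows of 24 of 67 members (35.8%), 40.4% of cytosolic genes, 20.8% of the genes tested for stage and 9.93% of all genes of the table. The YY1 letters were in 19.4% of members (8.87% of tested and 7.28% of all genes), the NRF1 letters in 11.9% (8.38% and 4.41%) and the TEAD letters in 11.9% (14.1% and 16.6%). Risers and fallers were alike in the ETS count, with 4 of 14 and 4 of 11 genes. Such a match is a description of letters and not evidence of binding.

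Many members start head to head with a neighbour on the other strand. A start within 1000 bases was found for 25 of 67 members (37.3%), 21.1% of cytosolic genes, 20.2% of tested genes and 12.3% of all genes in the table. Of the 14 risers with a promoter, 9 had such a neighbour, and of the 11 fallers 3. The start of Mrpl43 is 116 bases from that of Twnk, the helicase that copies mitochondrial DNA, listed in the tables under its older symbol Peo1. Peo1 was at 11.7, 9.74, 11.5 and 8.17 FPKM in GV libraries and at 28.4 and 23.0 FPKM at the 4-cell stage, and rose by 1.24 (adjusted p 0.0166). Mrpl46 and Mrps11 are neighbours of each other and were counted from either side. Of 23 pairs with a tested neighbour, 9 neighbours passed the test, beside 56% of all genes tested. In 4 of these pairs the member passed too, each time in the same direction (Mrpl43 and Peo1, Mrpl51 and Ncapd2, Mrpl27 and Eme1, Mrpl40 and Hira). In the other 5 the member did not pass, as with Mrpl18 (-0.31) and its neighbour Tcp1 (1.30). Mrps7 rose while its neighbour Gga3 was at -0.87 and did not pass. Mrpl49 is 192 bases from Fau, a ribosomal protein gene of the cytosol with a difference of 1.37 (adjusted p 0.0563). Mrpl46 and Mrps11 lie 42 bases apart, at 0.47 and 0.98, and neither passed.

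In GV oocytes the question was whether loss of Yap1 alters the messages of the mitochondrial ribosome before fertilisation. No member passed the limma test (0 of 76, with 0% of 10462 genes called). Yap1 itself, at -4.10 ± 0.387 (SE) with an unadjusted p of 0.00017, missed the adjusted threshold too (adjusted p 1.00), so a miss in this fit does not show that a gene was alike in both genotypes. At an unadjusted p under 0.05, 0 members and 22 genes (0.21%) were found, and the smallest unadjusted p of a member was 0.269. The median log2 difference, YAP-null minus wild type, was -0.02 for members and -0.00 for all genes. Both YAP-null libraries lay above both wild-type ones for Mrpl19, Mrpl42, Mrps21 and Mrpl1 (4 members, 5.1% of all genes), and below for Mrpl15, Mrpl43 and Mrps12 (3 members, 5.68% of all genes).

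Among the members whose genotype groups did not overlap, Mrpl15 had the largest downward and Mrpl19 the largest upward difference. Mrpl15, a large subunit protein, stood at 5.19 and 3.35 FPKM (YAP-null) against 7.03 and 5.47 FPKM (wild type) (-0.47 ± 0.398, SE), and Mrpl19 at 2.10 and 2.02 against 1.45 and 1.14 FPKM (0.42 ± 0.337). The groups did not overlap for either gene, and neither passed (adjusted p 1.00 each in limma). The locus of Mrpl19 overlaps that of Gcfc2, which was at 5.51 to 8.80 FPKM in GV libraries, so the value of Mrpl19 is uncertain. Between the libraries numbered 1 the largest genotype difference of any member was 0.75 on the log2 scale, and between those numbered 2 it was 0.81, so 0 members were 2-fold apart. Of all genes, 0.627% were 2-fold higher and 0.995% lower in YAP-null oocytes of number 1, and 0.652% and 0.888% in those of number 2. With 2 libraries against 2, the smallest p of an exact permutation test is 0.333. The median of members was between -0.46 and 0.38 when a library was left out, each extreme from an unequal mix of numbers 1 and 2.

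At the 4-cell stage most members stood lower in the YAP-null than in the wild-type library, and none was 2-fold higher. There is 1 library per genotype, so the spread between embryo samples is unknown and no test was made. By the 2-fold rule on FPKM + 1, 20 of 76 members were lower (26.3%, against 9.97% of 10854 genes) and 0 were higher (17.7% of all genes). In all, 62 members were below and 14 above the wild-type library. The median log2 difference was -0.41 for members and 0.05 for all genes. The cytosolic list was lower too, with 33 of 78 genes past 2-fold, 78 of 78 below the wild-type library and a median of -0.92. Those counts moved with the scaling, to 13 past 2-fold and 77 below with the same sum, and to 6 past 2-fold and 68 below with quantile normalization (median -0.46).

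**Figure D4:**
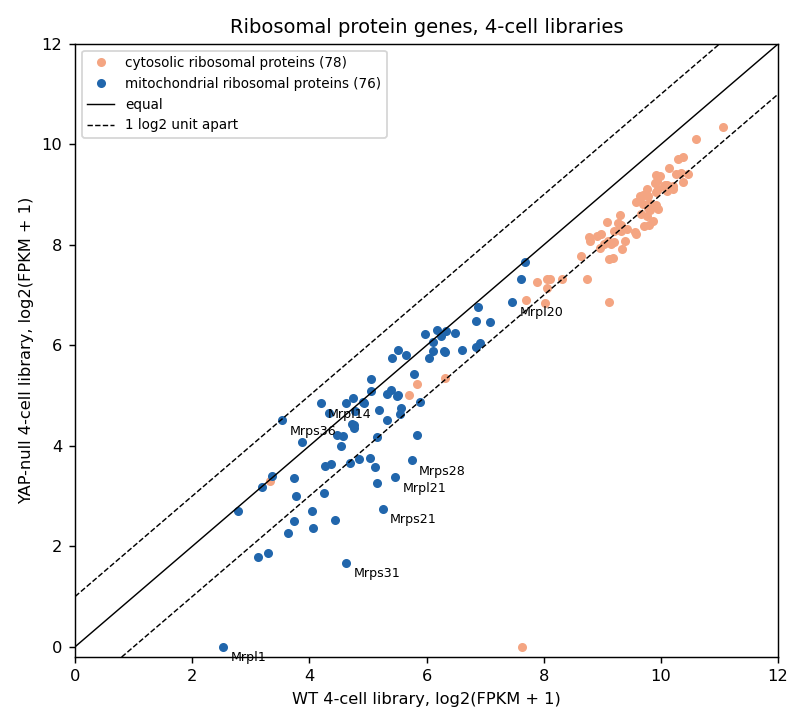
log2(FPKM + 1) in the YAP-null (vertical) against the wild-type (horizontal) 4-cell library for the 76 mitochondrial and 78 cytosolic ribosomal protein genes, 1 point per gene. The solid line marks equal values and the dashed lines 1 log2 unit. No member lies above the upper dashed line, and Mrps31 and Mrpl1 lie farthest of the members below the lower one. The cytosolic point at the bottom is Rpl26, at 0.000796 FPKM in the YAP-null library.

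How the libraries were scaled changed the counts around 0 more than the gap to other genes. The median of all genes moved from 0.05 to 0.23 when the libraries were scaled to the same sum, and 52 members were then below the wild-type library. With median-ratio scaling 65 members were below it, and with quantile normalization 62. Relative to the median of all genes, the members' median was lower by 0.46 as deposited, and the gap was -0.45, -0.46 and -0.40 with the same sum, median-ratio scaling and quantile normalization. Of the genes past 2-fold, 64% were higher in the YAP-null library as deposited, and 75.4%, 56.4% and 52.8% under those scalings.

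The lower members came mainly from proteins with a bacterial counterpart, 11 of 30 in the large and 7 of 16 in the small subunit. Of the mitochondria-specific ones, 0 of 19 in the large and 2 of 11 in the small subunit were lower by that rule. The class medians were -0.75, -0.77, -0.10 and -0.28 in that order. The difference between classes has no replicate and was not tested.

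Mrps31, a mitochondria-specific protein of the head of the small subunit (mm9 chromosome 8, 23521812 to 23540137), showed the largest difference with a pseudocount of 1 FPKM (-2.96, against -2.53 for Mrpl1), at 2.18 FPKM (YAP-null) against 23.8 FPKM (wild type), or 9.18% of wild type. In oocytes it was at 38.1 and 19.3 FPKM (YAP-null) and 34.3 and 23.2 FPKM (wild type), so the wild-type embryo value fell within the oocyte range and the YAP-null value far below it. Mrps21 stood at 15.4% of wild type, and Mrpl1 was listed at 0 against 4.78 FPKM. With a pseudocount of 0.1 FPKM Mrpl1 came first, at -5.61, before Mrps31 at -3.39. Mrpl21, a protein of the large subunit body, was at 9.36 and 43.1 FPKM (21.7%) and Mrps28 at 12.1 and 52.6 FPKM (23.1%). Mrps5, which lines the entry of the message channel, was at 4.72 and 20.6 FPKM (22.9%). For Mrpl21, Mrps28 and Mrps5 the 4 GV values lay between 19.4 and 50.9 FPKM, and the YAP-null embryo value was below each oocyte value of its gene.

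The highest differences in the other direction were below 2-fold: Mrps36 at 21.7 against 10.6 FPKM (0.97) and Mrpl14 at 27.7 against 17.3 FPKM (0.65), followed by Mrpl42 (0.38), Mrps23 (0.34), Mrps12 (0.33) and Mrpl10 (0.27). Both Mrps36 and Mrpl14 were among the fallers between stages. At the edge of the rule, Mrpl33 was just inside at -1.02 and Mrpl47 just outside at -0.98. Of the 16 stage risers 1 was 2-fold lower in the YAP-null library (Mrpl15, 8.64 against 34.8 FPKM). Of the 12 fallers 5 were, and of the other 48 members 14. The stage calls used the same YAP-null embryo library. A low value there favours a fall and works against a rise, so these counts are not independent of the calls. Whether risers and fallers differ by genotype was not tested.

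Other measures differed between the same 4-cell libraries. All 8 oocyte markers were at least 2-fold higher in the YAP-null one, with a summed level of 923 against 148 FPKM, and all 8 had fallen between stages. The blood sum was 25.9 against 68.3 FPKM. Of the members, 44 had deposited values within their own deposited bounds in both 4-cell libraries, and 13 of them were 2-fold lower with a median of -0.36. Of the 32 with a value outside, 7 were, with a median of -0.49. The part of the oocyte or blood markers in the members' difference was not tested.

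A stage-by-genotype term asked whether the genotype difference changed from oocyte to embryo. It passed for 18 of 11451 genes (0.157%) and for 0 members, with a smallest adjusted p of 0.286 for a member, in a limma fit whose spread comes from the GV libraries alone. The lone 4-cell libraries are assumed to vary like them, which these data cannot check, so the p-values of this term hold only under that assumption. At an unadjusted p under 0.05 there were 5 members (6.58%, against 10.3% of all genes): Mrps21 (-2.84), Mrpl1 (-2.81), Mrpl19 (-1.84), Mrps31 (-2.91) and Mrps9 (-1.71). Without the mean-variance trend 0 genes passed.

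Other genes of mitochondrial translation were counted beside the same background, 28.2% of all genes that rose and 27.8% that fell. Among 7 further ribosomal subunits outside the Mrpl and Mrps names, 0 rose and 1 fell: Dap3, a GTP-binding protein of the small subunit head, was at 75.5, 33.4, 78 and 37.0 FPKM in GV libraries and at 5.93 and 4.17 FPKM at the 4-cell stage (-3.15, adjusted p 0.00243). Of 25 tested genes for assembly and ribosomal RNA modification, 10 rose and 6 fell. The ribosomal RNA methyltransferase genes differed in direction: Tfb1m, which acts on the small subunit RNA, fell by 3.93, whereas Rnmtl1 of the large subunit RNA rose by 3.66. Wbscr16 (3.44) and the pseudouridine synthase Trub2 (3.09) rose as well.

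Of 13 tested translation factors 2 rose and 4 fell. The risers were Tufm, the elongation factor that delivers aminoacyl-tRNA (2.24), and Pdf, the deformylase of new peptides (2.34). Mtfmt, which formylates the initiator tRNA, fell by 2.12 and the release factor family gene Mtrf1 by 2.03. Of 23 genes for mitochondrial DNA copying, transcription and RNA handling, 7 rose and 4 fell, with Tfb2m, the transcription initiation factor, at 3.16 and Ptcd2 at -2.05. Tefm, the elongation factor of mitochondrial transcription, rose by 2.57 and Tbrg4 by 2.39. In the 4-cell genotype comparison 1 of 7, 5 of 26, 1 of 13 and 3 of 23 genes of these lists were at least 2-fold lower in the YAP-null library, and 0, 2, 0 and 1 were higher, beside 9.97% and 17.7% of all genes.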

How the data were processed

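RNA from 6 pools of oocytes or embryos was sequenced as paired ends. Per the submitters' processing notes, CASAVA 1.8 and TopHat were used with mm9. No source used here names the TopHat version or the quantification tool. Per the file headers, the authors' tables hold FPKM per gene with a lower and an upper bound, also in FPKM. Each table has 23813 lines. Loci of 260 symbols were summed and 1 failed line was dropped, giving 23308 symbols. Members were placed on mm9, and promoters came from RefSeq on GRCm38.p6; positions of the builds were not mixed. Transcript lengths were GENCODE M21 medians, matched for 91.2% of tested genes. Read counts are unknown, so no counting interval is given.

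Values were compared as log2(FPKM + 1), which understates the change of low genes, for genes averaging 1 FPKM or more in the libraries of a comparison. limma 3.58.1 (limma-trend, R 4.3.3) was fitted to all genes, two-sided, with Benjamini-Hochberg adjusted p under 0.05 over all genes: stage on 6 libraries with genotype as covariate, genotype on 4 GV libraries, and stage by genotype on 6. The pair of 4-cell libraries was described by a 2-fold rule. Scripts were tested on simulated data. Alternatives were the pseudocount, the filter, the scaling, the trend, the covariate, a replicate block and leaving out libraries.

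The members and lists were chosen with earlier results of these data known. Genes named were drawn from the 6 highest and 4 lowest members, up to 10 per direction of stage calls, non-overlapping members in oocytes, the 6 largest 4-cell differences per direction, the S18 homologues, Mrpl12, Mrps12 and up to 4 genes of each other list. Mrpl34 of the highest and Mrpl17 and Mrpl11 of the lowest are not described above. Further members were named to complete a class count or to show a promoter, after their values were seen. The 0 mitochondrially encoded symbols in the tables leave those messages not analysed here.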

Additional observations from a re-analysis of the deposited data

How the results depend on the processing

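The number of members that rose with stage was 16 and the number that fell 12. Without a filter on low values they were 9 and 6, and over all genes 3035 rose and 2216 fell. With the GV libraries numbered 1 only, 19 members fell, and with those numbered 2 only, 25 rose. Counts over all genes are not given here for these fits, so the member counts stand without a background. Leaving out 1 library at a time gave 5 to 16 risers, 4 to 17 fallers and medians of -0.23 to 0.13, and over all genes 1650 to 3182 risers and 1315 to 3171 fallers. At the 4-cell stage 20 members were 2-fold lower, and 10 with a pseudocount of 5 FPKM, and over all genes 834 were then higher and 441 lower, against 1925 and 1082. With a mean of at least 5 FPKM, 1083 were higher and 640 lower. A pseudocount of 0.1 FPKM gave 1 member 2-fold higher, and so did scaling to the same sum (1). Over all genes 2342 and 2346 were then higher. Stage differences of members that did not pass changed sign for Mrps18a (0.06 without YAP-null GV replicate 1, 0.12 without the YAP-null 4-cell library, 0.39 with GV number 2 only), Mrps18c and Mrps12 without the YAP-null 4-cell library, and Mrpl12 (-0.065 with GV number 1 only). Leaving out each library in turn gave -0.605 to 0.125 for Mrps18a, -1.47 to 0.092 for Mrps18c and -0.0862 to 0.572 for Mrps12. The cause of these shifts was not tested.

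Nothing in the labels ties equal replicate numbers to one animal or day. With the number as a replicate block, the oocyte comparison called 0 members (2 genes in all) with a median of -0.02, and a replicate block within GV, added after the data were seen, called 25 risers and 17 fallers, and over all genes 3963 and 4026, against 3228 and 3180. Yap1 passed with the replicate block (adjusted p 7.57e-05). The difference between numbers 1 and 2 had a Pearson's r of 0.85 between the genotypes across 10462 genes. In oocytes 0 members were called in every alternative run, and 2 to 7 genes were with 1 library left out.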
